A study of Mus musculus with 8 samples.

Results

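Germline genes are transcribed in developing sperm and eggs, and some of them in the early embryo, and DNA methylation of their promoters helps to keep many of them silent in body tissues. Here 34 such genes were followed in cultured muscle satellite cells of mice lacking Dnmt3a, which encodes a de novo DNA methyltransferase. They were the spots whose gene name in the array files was one of 34 listed symbols, and they made up 40 probes of 39429 probes on the array and 34 genes of 31732 genes with a usable probe. The list covers germ granule and piRNA pathway genes, meiotic chromosome genes, germ cell transcription regulators, the X-linked Rhox homeobox cluster, other X-linked germline genes, testis enzymes and structural proteins, and genes of pluripotent cells and the early embryo.

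Satellite cells are the stem cells of skeletal muscle, which fuse into myotubes when they differentiate. They were isolated from the extensor digitorum longus, a hindlimb muscle, of Dnmt3a-KO mice and of their WT littermates, all labelled as male and 8 weeks old. The cells of both genotypes grew for 5 days in growth medium, were replated at matched number, and were kept in differentiation medium for 2, 4, 5 or 6 days. Each combination of genotype and day had 1 one-colour array, 4 Dnmt3a-KO and 4 WT arrays in all, so no group was repeated. The labels name neither the cells in which the deletion was made nor a Cre driver, and they do not tell if each day had mice of its own. The p-values for genotype therefore measure how much the genotype difference varied from day to day, which may be technical. Those for a trend over days, or for a genotype difference that changes with day, treat the Dnmt3a-KO and WT arrays of a day as independent. As these arrays shared a slide, the p-values for a trend may be too low. Those for a changing difference may be too high, since a shift common to both arrays of a day stays in their residual.

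The promoters of these genes are known for their CpG, the base pair step at which methylation is placed in mammals. In embryonic stem cells, the atypical Polycomb complex PRC1.6 is known to mark many germline promoters through E2F6, which binds GCGGGA (or TCCCGC on the other strand), and through MGA with MAX, which bind the palindrome CACGTG, and methylation is then laid down there chiefly by Dnmt3b. RefSeq promoter windows of build GRCm38.p6, from 250 bases before to 50 bases after the start, were matched for 27 of the 34 genes, and the window with the most CpG was kept for each gene. Dppa3, Dppa5a, Piwil2, Rhox6, Rhox9, Spo11 and Tex11 are named only. The last 200 bases before the start are shown on the gene's strand for 5 genes, 3 that were never well above background (Dazl, Ddx4 and Slc25a31) and 2 that were so on 8 arrays (Mov10l1 and Rhox5), with each CpG in capitals.
Dazl, chr17:50293621-50293820, minus strand: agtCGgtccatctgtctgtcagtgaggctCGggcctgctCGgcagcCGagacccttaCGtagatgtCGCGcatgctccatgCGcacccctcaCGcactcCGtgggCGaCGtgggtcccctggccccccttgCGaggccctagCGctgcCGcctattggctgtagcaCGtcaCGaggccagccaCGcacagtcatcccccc
Ddx4, chr13:112652311-112652510, minus strand: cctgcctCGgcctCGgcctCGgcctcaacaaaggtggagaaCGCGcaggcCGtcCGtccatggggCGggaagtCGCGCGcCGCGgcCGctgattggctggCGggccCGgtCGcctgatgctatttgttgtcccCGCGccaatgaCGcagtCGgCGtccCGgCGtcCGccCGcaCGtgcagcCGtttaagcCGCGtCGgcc
Slc25a31, chr3:40708671-40708870, plus strand: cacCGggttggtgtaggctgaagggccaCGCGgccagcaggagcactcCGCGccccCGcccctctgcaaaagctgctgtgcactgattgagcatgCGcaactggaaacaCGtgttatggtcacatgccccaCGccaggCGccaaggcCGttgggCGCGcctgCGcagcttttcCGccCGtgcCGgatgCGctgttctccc
Mov10l1, chr15:88982794-88982993, plus strand: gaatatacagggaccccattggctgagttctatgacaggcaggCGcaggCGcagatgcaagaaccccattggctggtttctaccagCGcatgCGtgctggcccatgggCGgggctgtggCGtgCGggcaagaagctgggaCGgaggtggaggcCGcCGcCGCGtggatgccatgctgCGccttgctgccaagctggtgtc
Rhox5, chrX:37754408-37754607, plus strand: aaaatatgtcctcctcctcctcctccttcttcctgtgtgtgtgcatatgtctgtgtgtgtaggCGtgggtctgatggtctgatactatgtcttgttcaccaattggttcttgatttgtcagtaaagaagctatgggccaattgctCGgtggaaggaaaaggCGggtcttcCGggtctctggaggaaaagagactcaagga

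These stretches held 31 CpG in Ddx4, 18 each in Dazl and Slc25a31, 13 in Mov10l1 and 4 in Rhox5. Over the 300-base windows the 27 germline promoters had a median of 17.0 CpG (range 2 to 38), against a median of 8.0 over 27025 genes. The 20 autosomal ones had a median of 19.5, and the 7 X-linked ones a median of 5.0, against 7.0 over 1045 X-linked genes. CACGTG stood in 12 of the 27 windows (44.4%), against 7.39% of all windows. GCGGGA or its reverse complement stood in 8 of them (29.6%), against 21.1% of all windows, and both motifs in 6 (22.2%), against 2.19% of all. Ddx4 has CACGTG starting at base -29 and GCGGGA at -136, counted from the start, and Slc25a31 has CACGTG at -93. Of the matched genes, the 12 never well above background had a median of 23.0 CpG, the 10 so on 1 to 7 arrays a median of 12.0, and the 5 so on 8 arrays a median of 17.0. These counts describe the letters of the windows, and methylation was not measured in these samples.

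**Figure D1:**
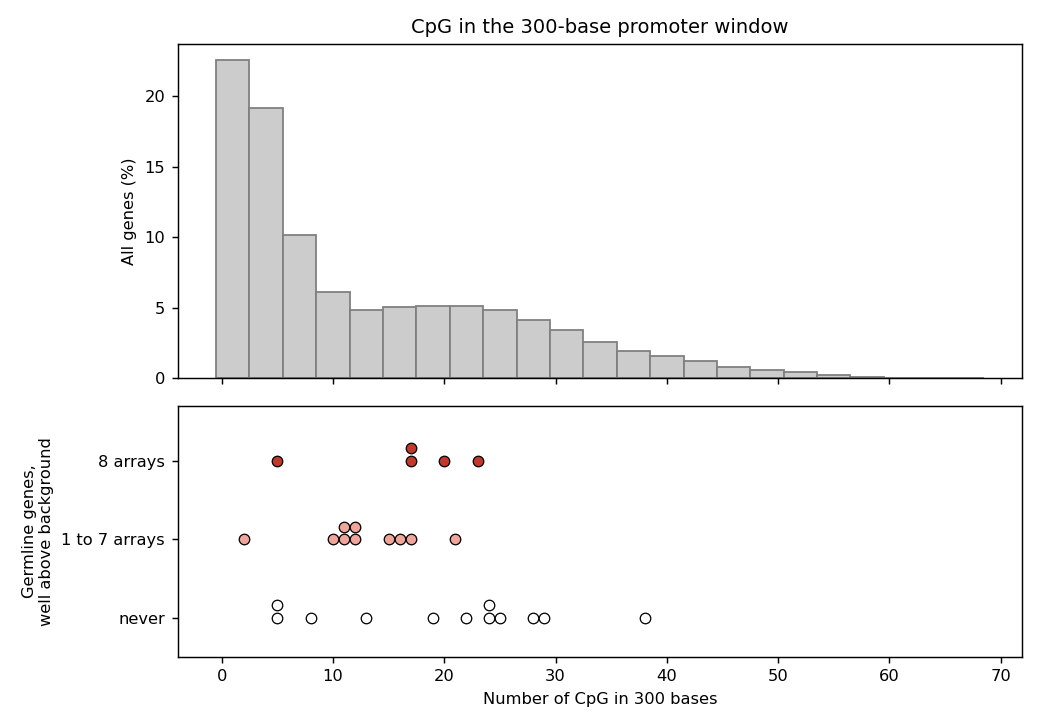
Number of CpG in the 300-base promoter window of all 27025 genes (upper panel, percent of genes per bin of 3 CpG) and of 27 germline genes (lower panel, 1 point a gene, stacked where equal), split by the number of arrays on which the gene was well above background. Genes never well above background run from 5 to 38 CpG, those so on 1 to 7 arrays from 2 to 21, and those so on 8 arrays from 5 to 23.

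The targeted gene was read first. Dnmt3a had 24.0, 52.5, 54.2 and 38.9% of the array's 75th percentile in Dnmt3a-KO cells on days 2, 4, 5 and 6, against 51.9, 265, 250 and 204% in WT cells. It was lower on each of the 4 days, by a mean of 2.01 ± 0.60 on the log2 scale (SD over 4 days), with limma's adjusted p = 0.101. No label or header places this probe inside or outside the deletion. All signals below are in the same unit, the processed intensity as a percentage of that array's 75th percentile over 43020 non-control spots, and a value under 0 is a spot dimmer than its subtracted background. The 75th percentile itself was 744 to 1482 intensity units on Dnmt3a-KO arrays and 720 to 1528 units on WT arrays, highest on day 2 in both genotypes.

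The sex-linked transcripts split the arrays by day, in both genotypes alike. The Y-linked gene Eif2s3y had 341% in Dnmt3a-KO cells and 378% in WT cells on day 2, and stood at the common floor of 0.763% on days 4 to 6. Xist, the RNA that coats an inactive X chromosome, was at the floor on both day 2 arrays and had 52.7 to 91.4% in Dnmt3a-KO cells and 64.2 to 78.2% in WT cells on days 4 to 6, against the label male. Both day 2 arrays also came from a slide, a G2505C scanner and a Feature Extraction version of their own, per the file headers. Day 2 therefore cannot be told apart from sex-linked state and scanner in any trend over days, and 10 of the 34 genes are X-linked. Desmin, creatine kinase and the myogenic factors Myod1, Myog, Myf6 and Pax7 were well above background on 8 arrays, as the labelled cell type would carry, while Myf5 was so on none.

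On each array most germline genes gave no signal well above background, while over all 8 arrays 15 of the 34 genes never did and 19 did so at least once. The scanner software's call for a spot well above its background was made for 11, 8, 9 and 12 of 40 germline probes on the Dnmt3a-KO arrays of days 2, 4, 5 and 6, and for 9, 10, 8 and 9 of 40 on the WT arrays. That made 40 of 160 calls in Dnmt3a-KO cells and 36 of 160 in WT cells. By gene, counting a germline gene if any of its probes was called, 9, 7, 8 and 11 of 34 were called on the Dnmt3a-KO arrays. Over all genes, counted by only 1 probe a gene, the shares were 66.3, 61.9, 62.2 and 61.0%. On the WT arrays 8, 9, 7 and 9 of 34 were called, against 63.7, 60.2, 62.6 and 60.5% of all genes. Of the 40 probes, 12 were called in both genotypes, 5 only on Dnmt3a-KO arrays, 5 only on WT arrays and 18 on none (45.0%, against 24.9% of all probes). Of all 39429 probes, 1580 were called only on Dnmt3a-KO arrays and 1009 only on WT arrays. Only 5 probes, of 5 genes, were called on all 8 arrays (12.5%, against 54.7% of all probes), and 10 on a single array (25.0%, against 5.68%), 5 of them Dnmt3a-KO arrays and 5 WT arrays.

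**Figure D2:**
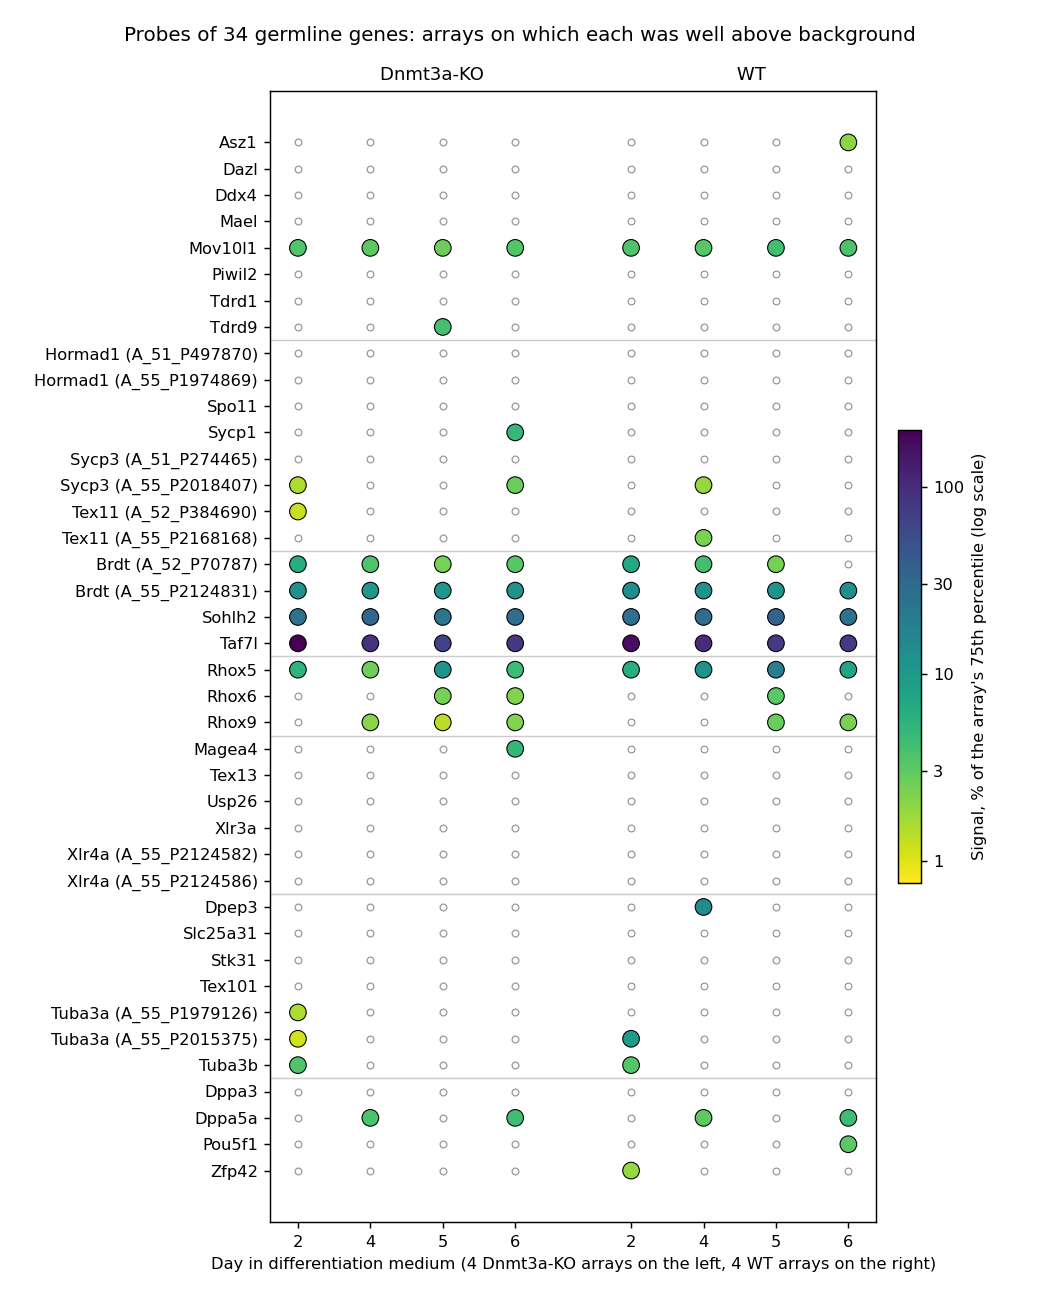
The 40 probes of the 34 germline genes (rows, grouped by role) on the 4 Dnmt3a-KO arrays (left) and the 4 WT arrays (right) of days 2, 4, 5 and 6. A large filled point is a spot well above background, coloured by its signal in percent of the array's 75th percentile on a log scale, and a small open point is a spot that was not. Filled points number 40 in Dnmt3a-KO and 36 in WT cells, and 5 rows are filled throughout.

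Among the 8 germ granule and piRNA pathway genes, which guard the germline genome against transposons and regulate germ cell RNA, 5 were never well above background. These were Dazl, an RNA-binding protein of germ cells, Ddx4, the Vasa helicase, Mael, Piwil2, a PIWI protein that binds piRNAs, and Tdrd1, a Tudor protein that docks PIWI proteins. Their highest signals were 1.77% (Dazl), 1.01% (Ddx4), 1.25% (Mael), 1.56% (Piwil2) and 1.5% (Tdrd1). The lowest signal called well above background anywhere on an array was 0.763 to 1.12% on Dnmt3a-KO arrays and 0.976 to 1.19% on WT arrays, but the call is made spot by spot, and uncalled germline spots reached 2.59% (Xlr4a). Piwil2 had 0.355, 1.27, 1.16 and 1.56% in Dnmt3a-KO cells, against 0.641, 0.277, 0.605 and 0.394% in WT cells on days 2, 4, 5 and 6. It was higher in Dnmt3a-KO cells on days 4, 5 and 6, yet no spot was called, and in limma's fit over all probes without a filter it had an adjusted p of 0.531.

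Mov10l1, the helicase that passes precursor transcripts into the piRNA pathway, was the 1 gene of that group well above background on 8 arrays. It had 3.54, 3.09, 2.65 and 3.43% in Dnmt3a-KO cells, against 3.60, 3.31, 4.10 and 3.68% in WT cells. It was lower on each of the 4 days by a mean of 0.21 ± 0.28 log2 units, which did not pass limma's test (adjusted p = 0.515), and the day 5 difference of -0.63 makes up most of that mean. Tdrd9, a helicase of the same pathway, was called on 1 array, with 0.345, 1.55, 4.00 and 2.14% in Dnmt3a-KO cells, against 0.512, 2.01, 2.54 and 1.47% in WT cells. Its 1 call, Dnmt3a-KO on day 5, was 4.00 ± 0.76% (the scanner software's error of the spot). Asz1, a scaffold of the granule, was called only in WT cells on day 6, at 2.02 ± 0.641%, and had -1.68 to 0.283% in Dnmt3a-KO cells and -0.695 to 0.460% on the other WT arrays.

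The 5 genes of meiotic chromosomes showed calls on scattered arrays. Hormad1, a protein of unsynapsed chromosome axes, and Spo11, which makes meiotic DNA breaks, were never well above background, with highest signals of 0.289% and 1.3%. Sycp1, the transverse filament of the synaptonemal complex, had 0.211, 2.41, -0.271 and 4.93% in Dnmt3a-KO cells, against 0.312, 0.460, -0.189 and 1.65% in WT cells. Its 1 call was Dnmt3a-KO on day 6 (4.93 ± 0.80%), at least 3.0-fold above WT cells of that day. The 2 Dnmt3a-KO signals on days 4 and 6 lay above every WT signal and the 2 on days 2 and 5 did not.

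Sycp3, a lateral element of that complex, had 1.51, 1.43, 1.65 and 2.73% in Dnmt3a-KO cells, against 0.937, 1.86, 2.30 and 1.48% in WT cells by the brighter of its probes. It was called on days 2 and 6 in Dnmt3a-KO cells and on day 4 in WT cells, and the genotypes overlapped. The second Sycp3 probe was called on no array. For the X-linked Tex11, needed for meiotic recombination, the 2 probes were each called once and not in the same genotype. One read 1.23 ± 0.238% in Dnmt3a-KO cells on day 2, against 0.253% in WT cells, and the other read -0.763% in Dnmt3a-KO cells on day 4, against 2.37 ± 0.543% in WT cells. The probes thus went in opposite directions.

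The 3 transcription regulators were well above background on all arrays. Brdt, the testis-specific bromodomain protein, had 12.3, 10.2, 10.9 and 12.1% in Dnmt3a-KO cells, against 13.0, 12.1, 11.3 and 12.6% in WT cells. The difference was -0.11 ± 0.09 log2 units, lower on each of the 4 days (limma, adjusted p = 0.563). The second Brdt probe, which lies at chr5:107815297-107815356 (mm9) while the first lies at chr5:107779688-107779747, was called on 7 arrays and lay below WT as well on days 2, 4 and 5. Its mean of 0.16 ± 0.59 is above 0 through day 6 alone (3.29% in Dnmt3a-KO cells, against 1.59% in WT cells, the 1 spot not called). Sohlh2, a basic helix-loop-helix factor of spermatogonia and oocytes, had 24.7, 32.5, 23.1 and 27.0% in Dnmt3a-KO cells, against 27.2, 28.8, 34.6 and 25.0% in WT cells. It was lower on days 2 and 5 and higher on days 4 and 6, with a mean of -0.11 ± 0.34 (adjusted p = 0.777).

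Taf7l, a germ cell relative of a subunit of the general factor TFIID, had 199, 88.2, 67.4 and 82.2% in Dnmt3a-KO cells, against 166, 100, 80.1 and 78.7% in WT cells. The genotypes differed by -0.03 ± 0.24 log2 units (adjusted p = 0.937), while both were highest on day 2. Its slope over days was -0.32 per day (adjusted p = 0.0132), among 19.5% of all tested genes that fell with a call and 25.9% that rose, but without day 2 it was -0.11 (adjusted p = 0.782) and without day 5 it was -0.29 (adjusted p = 0.0612). The probe, at chrX:130994658-130994717 (mm9), also shares bases with probes of other genes. Bases 25 to 54 of its 60 are shown with the run it has in common with a probe of P3h4 in capitals.
Taf7l: TAAGACCCTGTCTCAAAATAAAAtaaactg

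That run is 23 bases long, and runs of at least 15 bases were shared with 10 probes of 9 other genes, 8 of which were well above background on all arrays. The part of such shared runs in the Taf7l signal was not tested. The second Brdt probe and those of Mov10l1, Rhox5 and Sohlh2 shared at most a run of 15 bases with any other gene's probe.

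The Rhox genes are homeobox genes of the X chromosome that act in reproductive tissues, and Rhox5 is a textbook example of a gene silenced by methylation outside them. Rhox5 had 5.49, 2.60, 11.3 and 4.46% in Dnmt3a-KO cells, against 6.07, 12.1, 19.4 and 7.40% in WT cells. It was lower in Dnmt3a-KO cells on each of the 4 days, with differences of -0.14, -2.22, -0.78 and -0.73 log2 units on days 2, 4, 5 and 6, though levels of the genotypes overlapped across days. The mean of -0.97 ± 0.88 was among those with an unadjusted p under 0.05 and did not pass limma's test after adjustment over 19655 genes (adjusted p = 0.357). On day 4 it was 4.65-fold lower, at 2.60 ± 0.61% in Dnmt3a-KO cells, against 12.1 ± 1.29% in WT cells. Both genotypes had their highest signal on day 5. The files list this probe as unmapped, and its first 30 bases, in lower case since none is shared with another gene's probe over 15 bases or more, identify it.
Rhox5: tggagtgagatggggagaaagatgcccttt

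The 5 fibroblast markers set out as a list, Pdgfra, Dcn, Col3a1, Pi16 and Thy1, were read beside it. All 5 were tested, 2 had a mean difference above 0 and 3 below it, and none passed in limma. Their median was -0.71, against -0.01 over all genes. At an unadjusted p under 0.05 were 2, against 2531 of 19655 tested genes. Those 2 were Col3a1, at -0.92 ± 0.65 (adjusted p = 0.3), and Pi16, at -1.06 ± 0.93 (adjusted p = 0.346), both lower in Dnmt3a-KO cells on each of the 4 days. Thy1 was at -0.71 ± 1.2, while Dcn, at 0.74 ± 0.99, and Pdgfra, at 0.48 ± 0.63, went the other way. Medians of the tested macrophage and leukocyte markers and of the endothelial markers were -0.09 and 0.05. The summed signal of the 5 fibroblast markers was 227 to 1039% on Dnmt3a-KO arrays and 534 to 1148% on WT arrays, and all 5 were well above background on at least 1 array. Their part in the Rhox5 difference was not tested, and in these bulk cultures fewer cells of a type and less RNA per cell cannot be told apart.

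Rhox9 had 0.244, 2.07, 1.35 and 2.23% in Dnmt3a-KO cells, against 0.618, 1.36, 2.71 and 2.33% in WT cells, and was called on 3 Dnmt3a-KO arrays and 2 WT arrays. Its genotype difference was -0.11 ± 0.67 log2 units (adjusted p = 0.87), with day 4 higher and day 5 lower in Dnmt3a-KO cells. Its slope of 0.40 per day (adjusted p = 0.0149) was 0.22 (adjusted p = 0.805) without day 2, when neither genotype was called, and 0.39 (adjusted p = 0.058) without day 5. Rhox6 had 0.936, 1.86, 2.44 and 2.19% in Dnmt3a-KO cells, against 1.12, 2.08, 3.24 and 1.66% in WT cells. It was called on 2 Dnmt3a-KO arrays and 1 WT array, and the genotypes overlapped.

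Of the 5 other X-linked germline genes, 4 were never well above background. These were Tex13, the deubiquitinase gene Usp26, and Xlr3a and Xlr4a of the X-linked lymphocyte-regulated family, with highest signals of 0.335, 1.09, 1.23 and 2.59%. The exception was Magea4, a member of the melanoma antigen family whose human relatives are cancer-testis antigens. It had 0.186, -0.121, 0.104 and 5.06% in Dnmt3a-KO cells, against 0.228, -0.917, -0.582 and -0.165% in WT cells, and so stood out on 1 array alone. That spot, at chrX:69467901-69467960 (mm9), read 5.06 ± 0.828%, at least 4.33-fold above WT cells of day 6. Its pixels had a mean of 116.1 and a median of 116 intensity units over a local background of 45.5 units.

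Among the 6 testis enzymes and structural proteins, 3 were never well above background. These were Slc25a31, the germ cell adenine nucleotide carrier, Stk31, a Tudor-domain kinase, and Tex101, a surface glycoprotein of germ cells, with highest signals of 1.45, 0.324 and 1.12%. Dpep3, a testis dipeptidase, had 0.172, 0.360, 0.946 and 0.721% in Dnmt3a-KO cells, against 0.212, 13.8, 1.49 and 2.08% in WT cells. Its single call was WT on day 4, at 13.8 ± 1.47%, and Dnmt3a-KO cells were at least 18.1-fold lower that day. The pixel mean of 171.2 and median of 169 of that spot were alike.

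Tuba3a and Tuba3b encode testis alpha-tubulins, and each of their probes was called on day 2 alone. Tuba3b had 3.52, 2.08, 1.38 and 1.22% in Dnmt3a-KO cells, against 3.45, 1.58, 2.19 and 1.79% in WT cells. The first Tuba3a probe had 1.11, 1.53, 0.955 and 0.654% in Dnmt3a-KO cells, against 9.32, 1.65, 1.67 and 2.08% in WT cells, and the second had 1.52, 0.671, 0.368 and 0.319% in Dnmt3a-KO cells, against 1.19, 1.49, 0.528 and 0.195% in WT cells. On day 2 the first probe was 8.36-fold lower in Dnmt3a-KO cells (1.11 ± 0.206%, against 9.32 ± 0.955% in WT cells), while the second was slightly higher there. The probes of both genes are near copies over a run of 28 bases, shown in capitals, so each may catch RNA of the other gene.
Tuba3a: CTTCCCCACCATTGGAAATAAAGGATATat
Tuba3b: CTTCCCCACCATTGGAAATAAAGGATATgt

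The first Tuba3a probe lies at chr6:125228307-125228366 and the Tuba3b probe at chr6:145569930-145569989 (mm9). The second Tuba3a probe lies 9 bases lower, at chr6:125228298-125228357, so the probes that disagreed on day 2 overlap on the gene.

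The 4 pluripotency and early embryo genes were dim or absent from the calls. Dppa3, which protects methylation in the zygote, was never well above background, with a highest signal of 0.210%. Pou5f1, the pluripotency factor Oct4, had 0.598, 1.88, 1.26 and 1.98% in Dnmt3a-KO cells, against 0.253, 1.40, 2.47 and 3.1% in WT cells, and its 1 call was WT on day 6 (3.1 ± 0.697%). The Pou5f1 probe shares a run of 25 bases with a probe of Gm5712. Zfp42, a zinc-finger gene of embryonic stem cells also known as Rex1, was called in WT cells on day 2 at 1.85 ± 0.281%, against 0.174 ± 0.173% in Dnmt3a-KO cells, at least 2.29-fold lower. It was under 0 on all arrays of days 4 to 6.

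Dppa5a had 0.843, 3.68, 2.47 and 4.22% in Dnmt3a-KO cells, against 0.864, 3.02, 2.43 and 4.35% in WT cells. It was called on days 4 and 6 in both genotypes, and the pair of values on each day lay within the error of a spot (3.68 ± 0.676% in Dnmt3a-KO cells and 3.02 ± 0.582% in WT cells on day 4). The genotypes differed by 0.06 ± 0.16 log2 units (adjusted p = 0.794). Its slope of 0.54 per day (adjusted p = 0.013) was 0.18 (adjusted p = 0.823) without day 2 and 0.58 (adjusted p = 0.0595) without day 5.

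**Figure D3:**
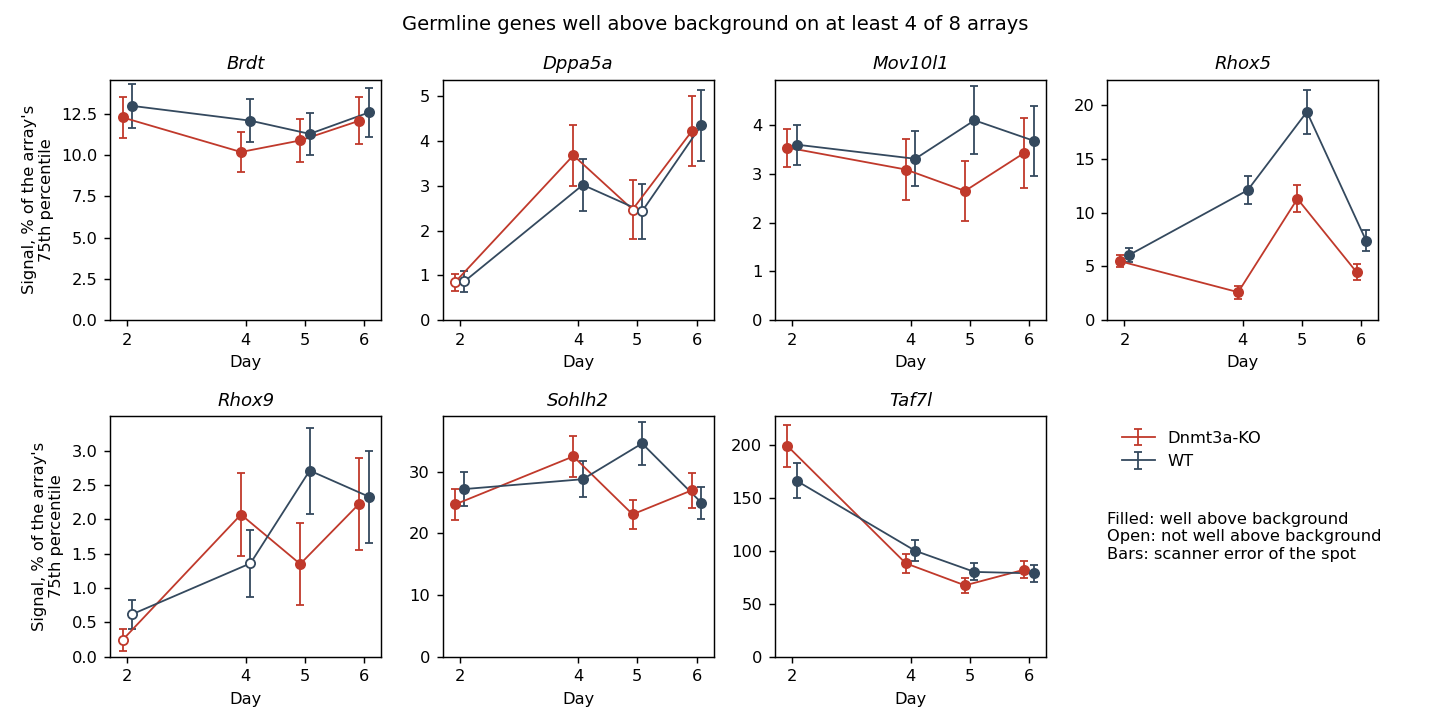
Signal of the 7 germline genes called on 4 or more arrays, in percent of the array's 75th percentile, on days 2, 4, 5 and 6 in Dnmt3a-KO (red) and WT (dark blue) cells, 1 array a point. Bars are the scanner software's error of the spot and open points were not well above background. Rhox5 is lower in Dnmt3a-KO cells on each day, and Taf7l is highest on day 2 in both genotypes.

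The 7 germline genes called on 4 or more of the 8 arrays, as 61.9% of all genes were, entered a fit over 19655 genes, with day as a block. None of the 7 passed, against 0.00509% of all genes called higher and 0.00509% called lower, 1 gene each, while 2531 genes had an unadjusted p under 0.05. Of the 7, 6 had a mean below 0, against 53.0% of all genes, and their median was -0.11, against -0.01 over all genes. No gene passed for a genotype difference that changes with day by limma (219 at an unadjusted p under 0.05), and the lowest p among the 7 was 0.515. These 7 had to be bright on at least 4 arrays to be tested, so they do not stand for the 34. Over the 40 probes without that filter, 1 had an unadjusted p under 0.05, the Piwil2 probe given above. Without the filter, by 1 probe a gene, 2982 of 31732 genes had an unadjusted p under 0.05 in limma's fit.

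**Figure D4:**
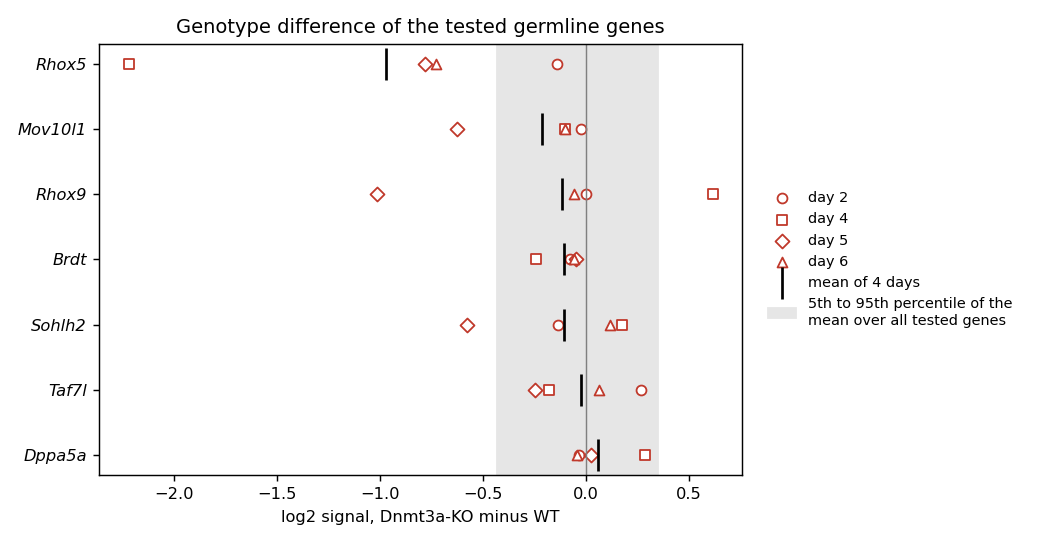
Difference in log2 signal, Dnmt3a-KO minus WT, of the 7 tested germline genes on each day (open symbols) and as a mean over 4 days (vertical bar). The grey band runs from -0.43 to 0.35, the 5th to 95th percentile of the mean over 19655 genes, and only the Rhox5 mean, at -0.97, lies outside it.

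Single days have no replicate, so a day's difference was counted by size alone, from 2-fold upward and where the brighter spot was called. Higher in Dnmt3a-KO cells were 0, 0, 0 and 2 of 34 germline genes on days 2, 4, 5 and 6, against 1.81, 1.52, 1.05 and 1.57% of all genes. The 2 were Magea4 and Sycp1. Lower were 2, 3, 1 and 1 of 34, against 1.40, 2.45, 1.94 and 1.75% of all genes. These were Zfp42 and Tuba3a on day 2, Dpep3, Rhox5 and Tex11 on day 4, Rhox9 on day 5 and Asz1 on day 6. No gene was in these counts on more than 1 day. With the dim array held at its own lowest well-measured signal, the Asz1 difference is a bound of at least 1.80-fold.

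Genes that write, read or maintain this silencing were measured on nearly every array. Of 32 genes for DNA methyltransferases, Tet enzymes, PRC1.6 subunits, H3K9 methylation and methyl-CpG binding, 32 were tested and 0 passed in limma in either direction. At an unadjusted p under 0.05 were 7 of them, the targeted gene Dnmt3a included, against 2531 of 19655 tested genes. The 32 had 17 means above and 15 below 0, and a median of 0.01. Uhrf1, which brings Dnmt1 to newly copied DNA, had 219, 64.2, 94.5 and 63.0% in Dnmt3a-KO cells, against 388, 128, 107 and 107% in WT cells, a difference of -0.69 ± 0.36 (adjusted p = 0.236). It was lower on each of the 4 days. The largest differences above 0 were those of Ring1, at 0.28 ± 0.24 (adjusted p = 0.391), and Uhrf2, at 0.22 ± 0.15 (adjusted p = 0.379). E2f6, Mga and Dnmt3b, named above, had 0.02 ± 0.17, 0.10 ± 0.23 and -0.11 ± 0.18, all with an adjusted p of 0.63 or more.

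A second list of germline genes, outside the 34, was read in the same way. Of 45 listed genes 43 had a probe, 14 of these were never well above background, and 13 were so on 8 arrays. Among the 34 genes these counts were 15 and 5, and over all probes the shares were 24.9% and 54.7%. Of the 43, 18 were tested, as 61.9% of all genes were, and 0 passed in limma in either direction. At an unadjusted p under 0.05 were 3, Tex15 among them, against 2531 of 19655 tested genes. The 18 had 7 means above and 11 below 0, and a median of -0.05. Rhox10, another gene of the Rhox cluster, had 11.5, 169, 178 and 130% in Dnmt3a-KO cells, against 12.3, 347, 339 and 224% in WT cells. It was lower on each of the 4 days, by a mean of 0.71 ± 0.42 log2 units (adjusted p = 0.265), and in both genotypes far lower on day 2 than on days 4 to 6. Prdm9, which places meiotic recombination, differed by -0.43 ± 0.94 (adjusted p = 0.64). The largest means above 0 were 0.47 ± 0.35 for Tex15 (adjusted p = 0.322), which met the filter through Dnmt3a-KO arrays alone, and 0.41 ± 0.54 for Xlr3b (adjusted p = 0.483).

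Tex15, a germ cell factor tied to piRNA-guided methylation, had 1.13, 2.53, 3.55 and 2.48% in Dnmt3a-KO cells, against 1.01, 1.36, 2.34 and 2.14% in WT cells. It was higher in Dnmt3a-KO cells on each of the 4 days, and its calls were on all 4 Dnmt3a-KO arrays and on no WT array. It thus entered the fit only through the genotype in which it was higher, so its difference is given as a description and its adjusted p is no support for it. Of 14 further pluripotency and early embryo genes 7 were well above background on 8 arrays and 3 on none, against 54.7 and 24.9% of all probes. Tested were 8 of the 14, as 61.9% of all genes were, and 0 passed in limma. At an unadjusted p under 0.05 were 0 of them, against 2531 of 19655 tested genes. The 8 had 3 means above and 5 below 0. Their largest means were 0.14 ± 0.54 for Esrrb (adjusted p = 0.806) and 0.10 ± 0.60 for Fgf4 (adjusted p = 0.87), and -0.23 ± 0.24 for Gdf3 (adjusted p = 0.459) and -0.15 ± 0.36 for Utf1 (adjusted p = 0.703). Markers of late male germ cells summed to 14.3 to 20.1% on Dnmt3a-KO arrays and 16.7 to 21.4% on WT arrays over 5 genes. Prm2 and Tnp1 were well above background on 8 arrays, Prm1 and Acrv1 on 3 each, and Tnp2 on none.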

How the data were processed

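Cy3-labelled RNA of 8 samples was read on Agilent arrays. The intensity of a spot is the processed signal deposited by the authors, made per the file headers with Feature Extraction 11.0.1.1 (both day 2 arrays) or 9.5.3.1 (the other 6). The submitters' processing notes name version 9.5. Each spot's call for being well above background is a flag deposited by the authors. The deposited value table holds a score per spot, equal within 1 unit to 100 times the processed signal over the 75th percentile of all spots, with negatives at 0. Its column medians were 6.

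Signals were divided by the 75th percentile of 43020 non-control spots, floored at 0.763% of it (the lowest well-above-background signal anywhere, -7.03 in log2) and logged. Outlier-flagged spots were left out, spots of a probe averaged, and the probe with the highest mean kept per gene. Of 39429 probes 26055 matched RefSeq GRCm38.p6 by accession. Probe coordinates are those of the files (mm9). Genes well above background on 4 or more of 8 arrays were fitted with limma 3.58.1 in R 4.3.3 (lmFit, eBayes, Benjamini-Hochberg, threshold 0.05), with 3 residual degrees of freedom for the genotype effect, 4 for its interaction with day and 5 for the day slope. The steps were tested on simulated data. An "at least" fold sets the dim array at the higher of its own signal and its lowest well-above-background signal. The number of arrays, 1 per group, limits the precision. Named were all 34 genes, Dnmt3a, and of the silencing, other germline and pluripotency lists each gene past the threshold and the 2 largest differences each way. Members and lists were chosen with earlier results of these data known. Alternatives covered scaling, background correction, filters, probes, blocks, fold sizes and each day left out.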

Additional observations from a re-analysis of the deposited data

How the results depend on the processing

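None of the 7 tested germline genes was called for genotype under the alternatives run for them, and the other 27 genes were fitted only without the filter. Over all genes, 2 were called for genotype, 0 with quantile scaling, 0 with the authors' value table, 0 without the filter, 38 among genes well above background on 8 arrays, 0 with no day block, 128 with day as a random block, 19 with slide as a block, 8 with every probe on its own, and 0 to 3 with a day left out. The day slope had 8920 calls and 0 to 9863 with a day left out (0 without day 2, 391 without day 5). The planned normexp correction (offset 50, on median signals because the day 2 files hold no mean signal) fitted poorly: the 10th percentile of signal over background went up to 1852.5 from 19 on WT day 2 and to 1498.6 from 27.5 on WT day 6. It moved the median genotype difference of all genes to -0.36 and gave 0 genotype and 0 slope calls. Local background subtraction with an offset of 50, chosen after seeing this, gave 74 genotype calls. Germline genes at 2-fold, summed over days, numbered 2 higher (1.47%, against 1.49% of all genes) and 7 lower (5.15%, against 1.89%). They numbered 3 and 6 with quantile scaling (all genes 1.65 and 1.9%), 0 and 21 with normexp (21 is 15.4%, against 17.1% of all genes), 0 and 2 with local subtraction (all genes 0.268 and 0.373%), 6 and 11 at 1.5-fold (3.79 and 4.73%), and 1 and 4 at 3-fold (0.62 and 0.731%). Calls above background rose to 94 in Dnmt3a-KO and 89 in WT cells of 160 with the positive-and-significant flag (76.9 to 82.2% of all spots), and to 69 and 64 above the 99th percentile of negative controls (54.0 to 80.6% of all spots). Rhox5 stayed below WT in all alternatives (-1.63 to -0.43, adjusted p 0.076 to 1). Changes of sign in genotype differences were Dppa5a at -0.016 with local subtraction and -1.47 with normexp, and, over the fits with a day left out, Rhox9 (-0.36 to 0.18), Sohlh2 (-0.20 to 0.052), Dppa5a (-0.018 to 0.092) and Taf7l (-0.12 to 0.049). In the interaction they were Dppa5a at 0.029 with quantile scaling and 0.083 with normexp, Brdt at -0.017 with local subtraction and -0.0050 with normexp, and Rhox9 (0.036) and Sohlh2 (-0.0057) with normexp. In the slope, normexp turned Rhox9 (-0.093), Rhox5 (-0.055), Sohlh2 (-0.020) and Dppa5a (-0.080), local subtraction turned Mov10l1 (0.14, adjusted p 0.0159) and Brdt (0.085, adjusted p 0.0271), and quantile scaling turned Brdt (0.0019). With a day left out the slope ran from -0.0015 to 0.38 in Rhox5, -0.12 to 0.053 in Sohlh2, -0.044 to 0.076 in Mov10l1 and -0.068 to 0.076 in Brdt. The cause of these changes was not tested. No paired analysis by replicate number was possible because each genotype and day has 1 array, and day is the block.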
